A study of Homo sapiens with 6 samples.

Results

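The genes described here encode enzymes that conjugate isoflavones and other phenols. They are 4 UDP-glucuronosyltransferases of the UGT1A locus (UGT1A1, UGT1A6, UGT1A8 and UGT1A10), the glucuronosyltransferase UGT2B7, and the cytosolic sulfotransferases SULT1A1, SULT1A2, SULT1B1 and SULT1E1. They were chosen by symbol from a list of 9 genes known for this chemistry. Of the 9, 6 had a row among the 30676 genes of the deposited table. UGT1A8, UGT1A10 and SULT1B1 had none and are not analysed here, and each row that was used had a count above 0 in at least 1 library. The treated cells were labelled HCT116, an established human colorectal cancer line, and were held for 24 hours at 1% oxygen with 10 µM GIA, which the title calls a genistein isoflavonoid alkaloid (3 libraries). The controls carry the same cell line label and were kept under the same low oxygen with 0.1% DMSO (3 libraries). The labels give the genotype as WT for both groups. They give a DMSO content for the controls alone, and there was no group at normal oxygen. Nothing in them ties the 3 libraries of a condition to separate cultures. The p-values therefore speak to the spread among these 6 samples, and that spread may be technical.

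Glucuronosyltransferases sit in the membrane of the endoplasmic reticulum and move glucuronic acid from UDP-glucuronic acid onto phenols, steroids and bilirubin. Cytosolic sulfotransferases move a sulfo group from the donor PAPS onto the same kinds of substrate. In the gut wall and the liver both reactions turn isoflavones such as genistein into water-soluble conjugates, which leave the cell through efflux transporters. The comparison asks whether transcripts for these reactions differ between GIA and DMSO when oxygen is low.

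The libraries held 64804849 to 67835059 estimated counts with GIA and 55725249 to 63542466 with DMSO. A count of 4 was more frequent (6798 values) than one of 3 (4183) or 5 (2499), so 1 fragment may be worth about 4 estimated counts. Counts of 1 (6528 values) and 2 (5410) were also frequent, which a fixed unit of 4 would not give. The worth of 4 is thus an assumption, and the fragment numbers and counting errors below rest on it. Of the 13 markers of colon epithelium, 5 reached a mean of 0.5 FPKM (FPKM divides a gene's fragments by its length and by the library's depth). KRT18 had 249 ± 27.7 FPKM with GIA and 262 ± 4.32 FPKM with DMSO (SD, n = 3 each). Over the 6 libraries KRT8 lay between 134 and 151 FPKM, KRT19 between 26.2 and 29.9, CLDN7 between 10.2 and 14.9 and CLDN4 between 0.818 and 1.02. The other members were low. CLDN3 lay between 0.154 and 0.542 FPKM and EPCAM between 0.119 and 0.335, while CDH1, KRT20, CDH17, VIL1 and LGALS4 were at or under 0.0751 in each library. GPA33 had no row, nor had CDX2, an intestinal transcription factor. Markers of other cell types were abundant in part. The fibroblast marker LUM lay between 157 and 197 FPKM and the hepatocyte marker CPS1 between 91.3 and 114, while ALB, COL1A2 and PDGFRA had no row. Nor had POSTN, APOA1, APOA2, TTR and HP. A mean of 0.5 FPKM was reached by 4 of 9 fibroblast and 3 of 13 hepatocyte markers. THY1 reached at most 0.133 FPKM in a library, APOC3 0.0630, SERPINA1 0.00889, COL3A1 0.00766 and TF 0.00420. The summed FPKM of the colon epithelium list (12 of 13 genes with a row) was 398 to 464 with GIA and 447 to 452 with DMSO. For fibroblasts (6 of 9 genes) it was 175 to 222 with GIA and 178 to 195 with DMSO, and for hepatocytes (8 of 13) 96.4 to 125 with GIA and 98.4 to 108 with DMSO. For leukocytes (6 of 8) it was 17.1 to 23.1 with GIA and 18.0 to 24.7 with DMSO, and for endothelium (6 of 7) 4.83 to 6.14 with GIA and 4.70 to 5.48 with DMSO. These 2 sums were almost all from 1 gene each, CD68 (17.0 to 24.6 FPKM) and EGFL7 (4.55 to 5.95). No other marker of either list reached a mean of 0.5 FPKM. The low epithelial markers and the high LUM and CPS1 go against the HCT116 label, while the keratins KRT8, KRT18 and KRT19 were high and the fibroblast and hepatocyte lists were mixed. The identity of the cells was not tested, and the label is used below as the submitters give it. The sums overlapped between the groups, and what part they have in the levels below was not tested.

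The UGT1A genes are 1 locus on the plus strand of chromosome 2 (GRCh38), in which each gene has a first exon of its own that is spliced to the same downstream exons. In the GENCODE 29 models the main transcripts of the 4 UGT1A members and of UGT1A7 each had 5 exons. Exons 2, 3 and 4 had the same start and end in all 5 genes (233767034 to 233767165, 233767849 to 233767936 and 233768220 to 233768439), and exon 5 had the same start. The sequences below run across the junction of exons 1 and 2, from the coding part of each transcript. They show why a read that lies downstream of the first exon cannot be given to 1 gene. Lower case is the last 30 bases of the gene's own exon 1, and capitals mark the first 30 bases of the shared exon 2.
UGT1A1: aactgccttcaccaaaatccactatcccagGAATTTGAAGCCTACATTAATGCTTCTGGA
UGT1A6: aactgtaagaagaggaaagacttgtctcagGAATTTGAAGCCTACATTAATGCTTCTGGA
UGT1A7: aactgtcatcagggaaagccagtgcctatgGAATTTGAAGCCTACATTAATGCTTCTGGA
UGT1A8: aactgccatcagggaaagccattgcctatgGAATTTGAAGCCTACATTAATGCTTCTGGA
UGT1A10: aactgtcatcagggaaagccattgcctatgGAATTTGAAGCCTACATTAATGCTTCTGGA
The row of UGT1A1 lists 1 transcript, where the reference has 2, and that of UGT1A6 lists 3, where it has 8. The UGT1A1 row spans 233760270 to 233773300, and its main reference transcript 233760248 to 233773299. The UGT1A6 row ends at 233772668, short of the end of its main reference transcript at 233773300. Neither row thus appears to hold the main transcript, and shared windows were not worked out for the transcripts in the rows. Cut into windows of 75 bases, the main reference transcript of UGT1A1 shared 61% of its windows with transcripts of other genes, UGT1A6 58.7%, UGT1A8 66.9% and UGT1A10 64.8%. The genes that shared them were other UGT1A genes in each case. UGT2B7, on chromosome 4, shared 2.26% of its windows, with UGT2B10 and the pseudogene UGT2B25P.

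The SULT1A genes are near copies of each other on chromosome 16. SULT1A2 differs from SULT1A1 at 28 of 885 coding bases (96.8% identical). SULT1A3 and SULT1A4, which encode the dopamine sulfotransferase, are identical over the 885 coding bases and differ from SULT1A1 at 49. The stretch of 90 coding bases that differs most between SULT1A1 and SULT1A2 (coding bases 421 to 510, which cross an exon boundary) is shown because it is where reads can best be told apart. It lies at chr16:28606845-28607029 on the minus strand for SULT1A1, chr16:28593336-28593520 on the minus strand for SULT1A2 and chr16:30202738-30202922 on the plus strand for SULT1A3. Capitals mark bases that differ from SULT1A1, 9 in SULT1A2 and 11 in SULT1A3.
SULT1A1: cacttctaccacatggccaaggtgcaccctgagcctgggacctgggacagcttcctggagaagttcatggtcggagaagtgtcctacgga
SULT1A2: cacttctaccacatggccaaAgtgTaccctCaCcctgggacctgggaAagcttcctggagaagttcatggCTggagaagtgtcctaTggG
SULT1A3: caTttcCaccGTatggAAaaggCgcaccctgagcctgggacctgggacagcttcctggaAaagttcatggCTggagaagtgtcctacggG
Of its 75-base windows SULT1A1 shared 23.8% and SULT1A2 17% with the other SULT1A genes, while SULT1A3 shared 100% and SULT1A4 99%. SULT1E1, on chromosome 4, shared 21%, all with AC108941.2, a model on the same strand that overlaps it.

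SULT1A1 and SULT1A2 made up most of the summed FPKM of the 6 genes with a row. This does not hold for all conjugation enzymes, as SULT1A3 and SULT1A4, outside the list of 9, had means of 2.05 and 2.84 FPKM. SULT1A1 had a mean of 3.33 FPKM over the 6 libraries, above 72.3% of the rows of the table, and 59.5% of the summed FPKM of the 6 genes. SULT1A2 followed with 1.74 FPKM, then UGT2B7 with 0.358, SULT1E1 with 0.142, UGT1A6 with 0.0252 and UGT1A1 with 0.00943. The ranges over the 6 libraries did not overlap between SULT1A1 (3.05 to 3.61) and SULT1A2 (1.54 to 2.18), or between SULT1A2 and UGT2B7 (0.176 to 0.492). The ranges of UGT2B7 and SULT1E1 (0.0557 to 0.241) overlapped, as did those of SULT1E1 and UGT1A6 (0 to 0.0880), and those of UGT1A6 and UGT1A1 (0 to 0.0170). The summed counts gave the same order, while the shares rest on the length used for each row. The ratio of count to FPKM puts the length behind the SULT1A1 value at 4.004 times that of SULT1A2, and the SULT1A1 row lists 11 transcripts.

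No conjugation enzyme passed the test between GIA and DMSO. SULT1A1 and SULT1A2 had a mean of at least 0.5 FPKM and entered the main test, and of these 2 genes 0 rose and 0 fell by edgeR's quasi-likelihood test, with 0 at an unadjusted p under 0.05. Of all 13721 tested genes 0 were higher (0%) and 0 were lower (0%), with 630 (4.59%) at an unadjusted p under 0.05, and DESeq2 also called 0, with 651. With no filter on low values, 0 of 30676 genes were higher (0%) and 0 were lower (0%), with 1081 (3.52%) at an unadjusted p under 0.05. Of the 4 members under the filter, SULT1E1 alone was among those 1081 and UGT1A1 has no fold.

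SULT1A1 is the main phenol sulfotransferase of adult tissues (minus strand of chromosome 16, 28605196 to 28623586). It had 3.49, 3.61 and 3.20 FPKM in the GIA libraries, against 3.05, 3.16 and 3.47 FPKM in the DMSO libraries. The groups overlapped, with GIA library 3 below DMSO library 3. Its log2 fold change was 0.09 (SE 0.07, with a 95% interval from -0.07 to 0.24, adjusted p = 0.878 by edgeR). On a linear scale the interval ran from 0.951-fold to 1.18-fold. Between libraries its share of the estimated counts varied by 6.65% (coefficient of variation over the 6), where counting about 4 estimated counts as 1 fragment alone would give 4.42%.

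SULT1A2, the less studied neighbour of SULT1A1 with a similar choice of substrates (28591943 to 28597047 on the same strand), had 1.54, 1.63 and 2.18 FPKM in the GIA libraries, against 1.87, 1.55 and 1.63 FPKM in the DMSO libraries. GIA library 3 was highest and GIA library 1 lowest, so the treated libraries spanned the controls. The log2 fold change of SULT1A2 was 0.07 (SE 0.18, 95% interval from -0.33 to 0.48, adjusted p = 0.954 by edgeR). Without GIA library 3 the log2 fold change turned to -0.10. SULT1A2 took 9.91%, 10.1% and 14.5% of the counts of both genes in the GIA libraries, against 13.3%, 10.9% and 10.5% in the DMSO libraries. The mean difference in this share was -0.07 percentage points (p = 1, exact permutation test, two-sided, where 3 libraries against 3 cannot give less than 0.1).

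Since reads of SULT1A1 and SULT1A2 may be exchanged, their counts were also added up and tested as 1 row. The sum was 37.8, 39.2 and 36.6 CPM (counts scaled to the library total) in the GIA libraries, against 34.3, 34.7 and 37.9 in the DMSO libraries. DMSO library 3 lay above GIA library 3, so the groups overlapped. The log2 fold change of the sum was 0.08 (SE 0.06, 95% interval from -0.05 to 0.22, adjusted p = 0.874 by edgeR), which bounds a change between these samples to 0.968-fold to 1.16-fold.

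**Figure D1:**
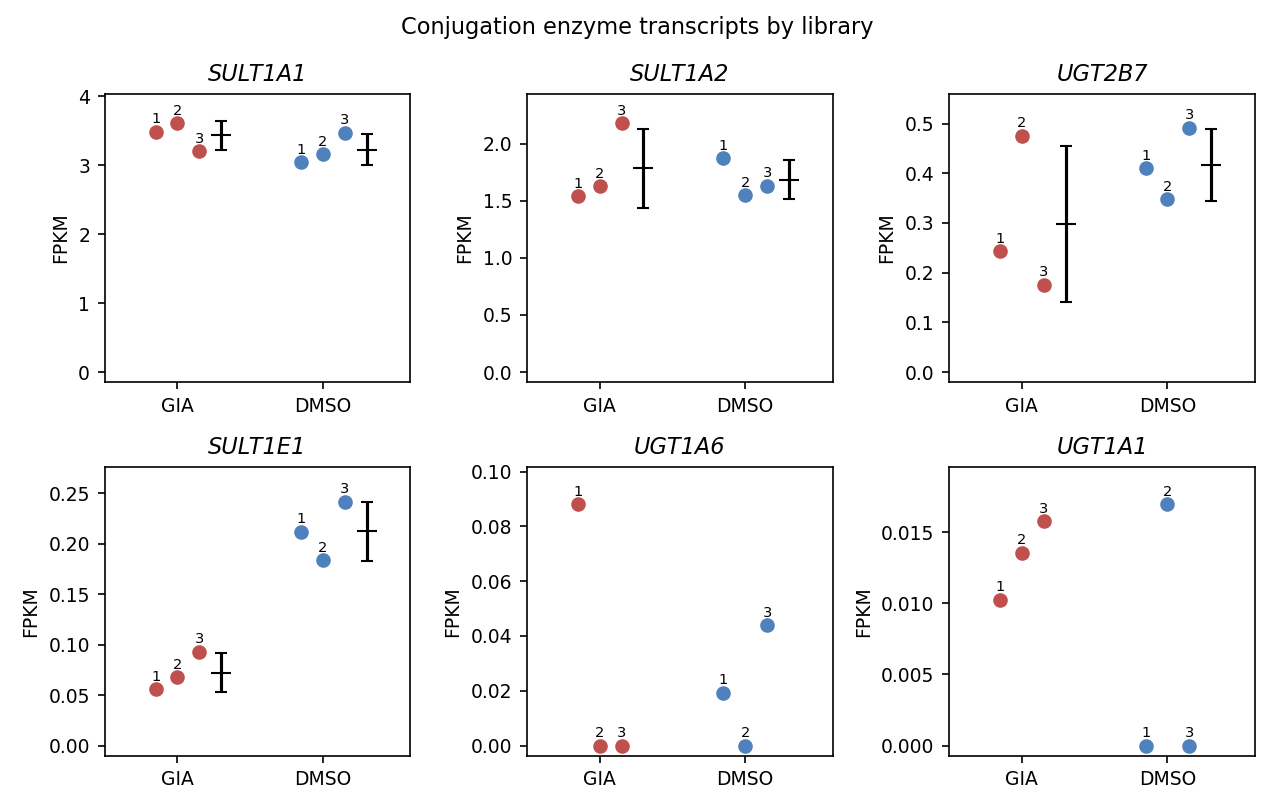
FPKM of the 6 conjugation enzyme genes in each library, with GIA left of DMSO; points carry the library number, and the black bar beside each group is the mean ± SD of 3 libraries (left out for genes listed at 0 in a library). The groups overlap for 5 genes, and for SULT1E1 the 3 GIA libraries (0.0557 to 0.0930) lie under the 3 DMSO libraries (0.183 to 0.241).

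SULT1E1 encodes the oestrogen sulfotransferase, which inactivates oestradiol and also takes phenolic substrates (minus strand of chromosome 4, 69841212 to 69860145). It had 0.0557, 0.0677 and 0.0930 FPKM in the GIA libraries, against 0.212, 0.183 and 0.241 FPKM in the DMSO libraries. Each GIA library lay below each DMSO library. The estimated counts were 9, 11 and 14 with GIA and 27, 25 and 35 with DMSO, about 9 and 22 fragments over the 3 libraries of each group if 1 fragment is worth 4 counts. At that worth the ratio of the rates, GIA over DMSO, was 0.359, with an exact 95% interval of 0.146 to 0.812 that covers counting error only.

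In the fit with no filter the log2 fold change of SULT1E1 was -1.52, with an SE of 0.39 and a 95% interval from -2.43 to -0.61, a level 2.88-fold lower with GIA. The size of this fold is uncertain, as GIA libraries 1 and 2 did not exceed 12 estimated counts. Its SE was wider in other fits with no filter. With counts divided by 4 the log2 fold change was -1.44 (SE 0.54), and with DESeq2 -1.54 (SE 0.68). SULT1E1 did not pass the test (unadjusted p = 0.00502, adjusted p = 0.751 by edgeR over 30676 genes). An unadjusted p this small or smaller was found for 45 rows of the table (0.147%). The exact permutation test of its FPKM gave p = 0.1, the smallest that 3 libraries against 3 allow. Of all rows, 3.89% had each GIA library below each DMSO library, and 3.81% of the 4435 rows within 2-fold of the mean FPKM of SULT1E1 did. Among the 6 conjugation enzyme genes 1 had groups that did not overlap, against 8.54% of all rows in either direction.

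As the groups do not overlap, leaving out a library could not turn the direction at SULT1E1. With each library left out in turn, its log2 fold change lay between -1.73 and -1.38, with adjusted p of at least 0.723 by edgeR. On the log2 (FPKM + pseudocount) scale used with limma, where changes of low genes come out too small, it was -0.86 with a pseudocount of 0.1 and -0.18 with 1. The overlapping model AC108941 shares 503 exonic bases with SULT1E1. It was given 3, 4 and 0 estimated counts in the GIA libraries, against 0, 0 and 0 in the DMSO libraries. With both models summed, a choice made after the values were seen, the log2 fold change was -1.26 (SE 0.36, adjusted p = 0.751 by edgeR).

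**Figure D2:**
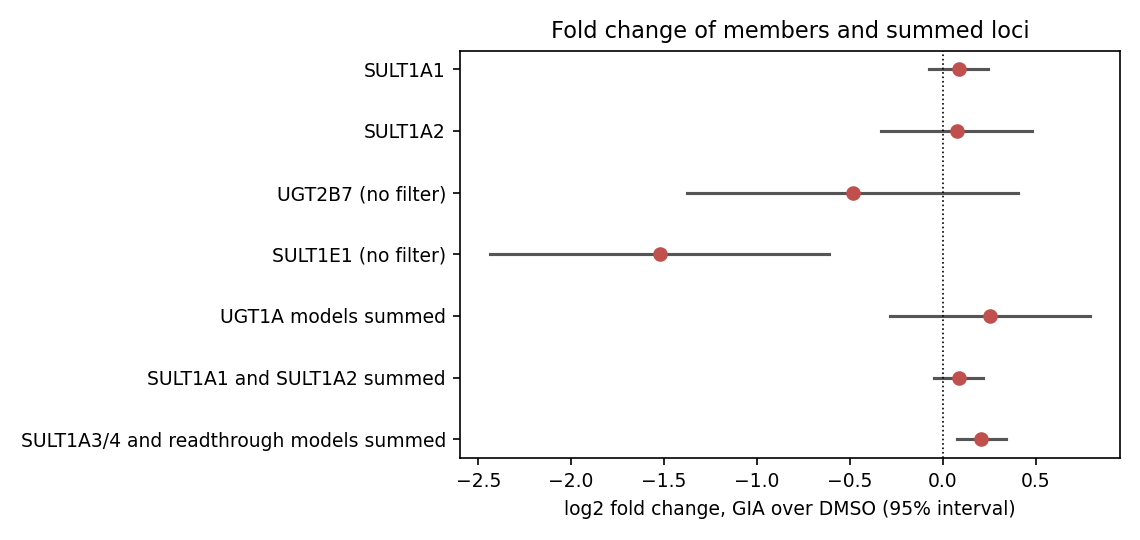
Log2 fold change, GIA over DMSO, with its 95% interval from edgeR for 4 conjugation enzyme genes and for the summed models of 3 loci (6 libraries; 0 is marked by the dotted line; UGT1A6 is left out for its width and UGT1A1 has no fold). SULT1A1 and SULT1A2 lie near 0, and SULT1E1 at -1.52 is the farthest from it; none passed the threshold after adjustment.

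UGT2B7, which glucuronidates steroids, bile acids and opioids (plus strand of chromosome 4, 69051363 to 69112972), had 0.244, 0.475 and 0.176 FPKM in the GIA libraries, against 0.410, 0.348 and 0.492 FPKM in the DMSO libraries. GIA libraries 1 and 3 were below each control and GIA library 2 was among them. Its log2 fold change with no filter was -0.48 (SE 0.38, 95% interval from -1.37 to 0.41, adjusted p = 0.751 by edgeR), with -0.97 without GIA library 2 and -0.22 without GIA library 3. If 1 fragment is worth 4 counts, about 37 fragments with GIA and 46 with DMSO stand behind these values. Its share of counts varied by 34.99% between libraries, where counting alone would give 26.6%.

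The UGT1A members with a row had few counts. UGT1A1, the bilirubin glucuronosyltransferase (233760270 to 233773300), was given 4, 5 and 5 estimated counts in the GIA libraries, against 0, 5 and 0 in the DMSO libraries. This is about 1 fragment in each of 4 libraries, if 1 fragment is worth 4 counts. A count of 0 allows up to 3 fragments (12 estimated counts, 0.177 to 0.215 CPM), and no library exceeded that, so no fold is given. UGT1A6, which acts on small planar phenols (233691607 to 233772668), had 34, 0 and 0 estimated counts in the GIA libraries, against 7, 0 and 17 in the DMSO libraries. It was listed at 0 in 3 of the 6 libraries and was highest in GIA library 1. Its log2 fold change with no filter was 0.34 (SE 1.77, 95% interval from -3.78 to 4.47, adjusted p = 0.988 by edgeR). Its share of counts varied by 136% between libraries, where counting alone would give 64.3%. The direction turned without GIA library 1, which leaves the GIA group at 0 and so gives no fold, and the log2 fold change was -0.23 without DMSO library 2.

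Most reads of the UGT1A locus were given to UGT1A7, a gene outside the list of 9. UGT1A7 had 0.511, 0.723 and 0.542 FPKM in the GIA libraries, against 0.434, 0.413 and 0.662 FPKM in the DMSO libraries. It took 80.7%, 96.6% and 97.0% of the UGT1A counts with GIA and 94.1%, 95.6% and 91.9% with DMSO. The share was lowest in GIA library 1, where UGT1A6 took 17.3%. The mean difference in the share of UGT1A7 was -2.45 percentage points (p = 1, exact permutation test, two-sided), and it turned to 2.91 without GIA library 1. How much of the shared exons belongs to each gene cannot be told from counts per gene.

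The counts of the 4 UGT1A models with a row (UGT1A1, UGT1A4, UGT1A6 and UGT1A7) were therefore summed. The sum was 2.90, 3.42 and 2.56 CPM in the GIA libraries, against 2.12, 1.99 and 3.32 in the DMSO libraries. DMSO library 3 lay among the GIA libraries. The log2 fold change was 0.25 (SE 0.24, 95% interval from -0.28 to 0.79, adjusted p = 0.880 by edgeR), with 0.52 without DMSO library 3 and 0.12 without DMSO library 2.

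**Figure D3:**
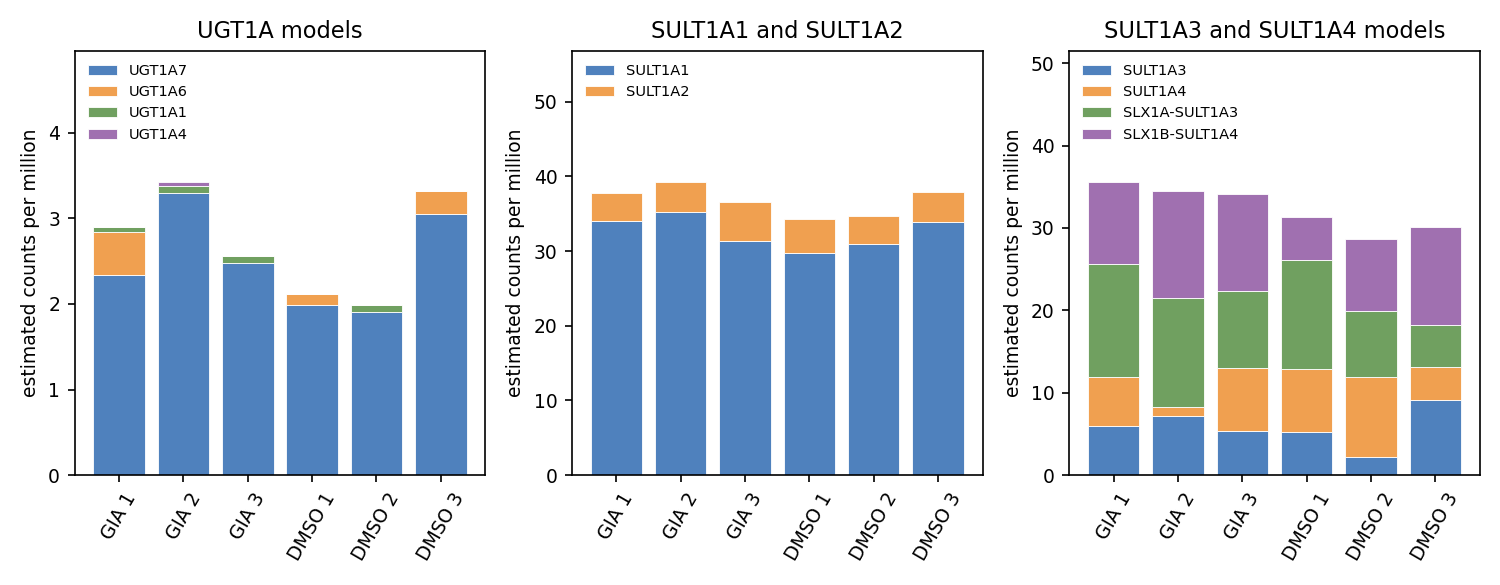
CPM in each library, stacked by the gene model they were given to, for the UGT1A locus, for SULT1A1 with SULT1A2, and for SULT1A3 with SULT1A4 and their readthrough models (GIA libraries left of DMSO libraries). UGT1A7 takes at least 80.7% of the UGT1A counts in each library, and the split between SULT1A3 and SULT1A4 changes more from library to library than their sum does.

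SULT1A3 and SULT1A4 show how far the split between copies can move. SULT1A4 had 2.83, 0.534 and 3.58 FPKM in the GIA libraries, against 3.61, 4.59 and 1.91 FPKM in the DMSO libraries, and SULT1A3 had 2.097, 2.53 and 1.89 with GIA, against 1.83, 0.751 and 3.21 with DMSO. The share given to each copy moved widely from library to library: SULT1A3 took 86.0% of the counts of both genes in GIA library 2 and 18.1% in DMSO library 2. Summed with the readthrough models SLX1A-SULT1A3 and SLX1B-SULT1A4, a choice made after the values were seen, they had 35.5, 34.5 and 34.1 CPM with GIA and 31.4, 28.6 and 30.1 with DMSO. Each GIA library was above each DMSO library, as in 4.65% of all rows by FPKM. In either direction the groups did not overlap for 8.54% of all rows and for 11.2% of the tested genes, which are nearer in level to this sum. The log2 fold change of this sum was 0.21 (SE 0.06, 95% interval from 0.07 to 0.34), and it did not pass (adjusted p = 0.875 by edgeR, 0.466 to 0.997 with a library left out).

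The rest of both enzyme families was mostly at or near 0, apart from SULT1A3 and SULT1A4. Of 17 other UGT genes 4 had a row and 1, UGT1A7, was tested. UGT1A4, UGT3A2 and UGT8 each had counts in a single library, of at most 4. Of 9 other cytosolic SULT genes 5 had a row and 2 were tested, SULT1A3 and SULT1A4. SULT4A1, a sulfotransferase best known from brain, had 0.465 ± 0.0943 FPKM with GIA and 0.358 ± 0.0513 with DMSO (SD, n = 3 each), and SULT2B1, which sulfates cholesterol, 0.0852 ± 0.0530 with GIA and 0.0597 ± 0.0531 with DMSO. Of the 3 tested genes of both families (UGT1A7, SULT1A3 and SULT1A4) 0 rose and 0 fell by edgeR, with 0 at an unadjusted p under 0.05.

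The most abundant genes that supply both donors had higher FPKM than any transferase named above. All 11 genes listed for UDP-glucuronic acid supply, transporters and nucleotidases among them, were tested. Of these 0 rose and 0 fell by edgeR, 1 had an unadjusted p under 0.05, and the median log2 fold change was -0.02, against 0.00038 over all 13721 genes. PGM1, a phosphoglucomutase, had 32.6 ± 2.83 FPKM with GIA and 30.8 ± 0.404 with DMSO, and the hexokinase HK2 30.3 ± 4.92 with GIA and 28.0 ± 1.19 with DMSO. UGP2, which makes UDP-glucose, had 19.0 ± 0.693 FPKM with GIA and 19.2 ± 0.735 with DMSO. UGDH, which oxidises UDP-glucose to UDP-glucuronic acid, had 20.3 ± 1.36 with GIA and 22.8 ± 0.592 with DMSO, with each GIA library below each DMSO library (groups did not overlap for 11.2% of tested genes) and an adjusted p of 0.875 by edgeR.

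Of 10 genes that make, move or recycle PAPS 9 were tested, with 0 higher, 0 lower and 1 at an unadjusted p under 0.05 by edgeR, and a median log2 fold change of 0.01. SLC35B2, which carries PAPS into the Golgi, had 55.0 ± 0.918 FPKM with GIA and 56.5 ± 0.809 with DMSO. The PAPS synthase PAPSS2 had 42.4 ± 0.555 with GIA and 44.1 ± 0.319 with DMSO, a log2 fold change of -0.06 (SE 0.03), with each GIA library below each DMSO library. The anion exchanger SLC26A6 had 14.6 ± 0.250 with GIA and 13.7 ± 0.455 with DMSO, a log2 fold change of 0.09 (SE 0.04), with each GIA library above. PAPSS2 and SLC26A6 did not pass (adjusted p = 0.875 by edgeR for each), and groups did not overlap for 11.2% of tested genes. BPNT2, a phosphatase of the Golgi that clears the used donor, had 14.2 ± 0.674 with GIA and 14.1 ± 0.0930 with DMSO.

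Genes that undo conjugation or carry conjugates did not pass either. Of 12 deconjugating genes 8 were tested (0 higher, 0 lower and 0 at an unadjusted p under 0.05 by edgeR, median 0.03). The beta-glucuronidase GUSB had 20.5 ± 2.01 FPKM with GIA and 19.6 ± 0.210 with DMSO, the sulfatase ARSA 4.80 ± 0.290 with GIA and 4.19 ± 0.662 with DMSO, and the sulfatase-modifying factors SUMF2 53.1 ± 4.93 with GIA and 52.6 ± 1.08 with DMSO and SUMF1 4.38 ± 0.306 with GIA and 4.62 ± 0.140 with DMSO. Of 17 transporters 11 were tested (0 higher, 0 lower, 0 at an unadjusted p under 0.05, median 0.0051). Among the efflux pumps for glucuronides and sulfates ABCC2 had 21.0 ± 1.18 FPKM with GIA and 20.9 ± 0.948 with DMSO, ABCC3 18.7 ± 0.591 with GIA and 18.2 ± 0.678 with DMSO, and ABCC1 14.7 ± 0.265 with GIA and 14.3 ± 0.472 with DMSO. The uptake carrier SLCO4A1 had 10.7 ± 0.507 with GIA and 11.3 ± 0.668 with DMSO.

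**Figure D4:**
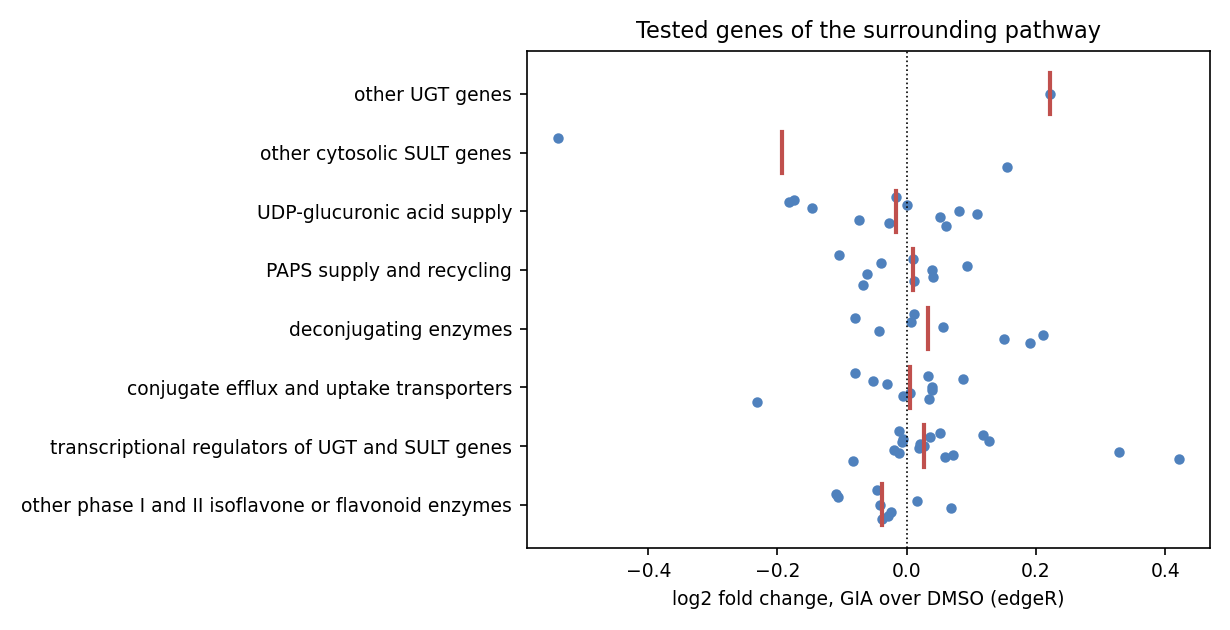
Log2 fold change, GIA over DMSO, from edgeR for each tested gene of 8 lists around isoflavone conjugation (points; vertical place within a list has no meaning), with the median of each list as a red bar and 0 as a dotted line. The medians of the lists with at least 8 tested genes lie between -0.04 and 0.03, and 0 genes passed the threshold.

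Transcription factors that control UGT and SULT genes did not pass the test either. Of 26 genes 17 were tested, with 0 higher, 0 lower and 1 at an unadjusted p under 0.05 by edgeR, and a median log2 fold change of 0.03. NFE2L2, the antioxidant factor NRF2, had 21.3 ± 0.606 FPKM with GIA and 21.0 ± 0.565 with DMSO, and its inhibitor KEAP1 17.4 ± 2.097 with GIA and 17.6 ± 0.275 with DMSO. RXRB, a partner of nuclear receptors, had 18.5 ± 0.450 with GIA and 17.0 ± 0.376 with DMSO, a log2 fold change of 0.12 (SE 0.04, adjusted p = 0.875 by edgeR), with each GIA library above each DMSO library. AHR had 10.7 ± 0.138 with GIA and 11.3 ± 0.383 with DMSO, with each GIA library below each DMSO library (adjusted p = 0.875 by edgeR). Groups did not overlap for 11.2% of tested genes. SP1 had 17.1 ± 0.834 with GIA and 16.4 ± 0.319 with DMSO. CDX2, MAF and NR1H4 had no row, and the xenobiotic regulator NR1I2 was among 6 genes with a row that did not reach the filter. Of 16 other enzymes of phenol and drug metabolism 9 were tested (0 higher, 0 lower, 0 at an unadjusted p under 0.05, median -0.04). The quinone reductase NQO1 had 98.1 ± 11.1 FPKM with GIA and 106 ± 0.662 with DMSO, the epoxide hydrolase EPHX1 42.0 ± 1.33 with GIA and 43.2 ± 1.12 with DMSO, and the glutathione transferase GSTP1 32.7 ± 2.19 with GIA and 32.3 ± 0.807 with DMSO.

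The genes most like SULT1A1 across the 6 libraries were SMYD3 and PRMT2, with Pearson r of log2 CPM of 0.9870 and 0.9821 among 13720 genes. With 6 libraries such values are common: the median over all tested genes of their own highest r was 0.9927.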

How the data were processed

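Libraries were strand-specific and made from TRIzol-extracted total RNA, per the labels' protocols. StringTie 2.1.6, HISAT2 2.2.1, DESeq2 1.22.2, FastQC 0.10.1 and cutadapt, with hg38 (GRCh38) as build, are named without a role in the submitters' processing notes. No source used here gives the annotation release. The deposited table holds an FPKM and an estimated count per gene and library, per the file headers. How the authors made the counts is not stated. The table's control and G columns were matched to the numbered control and GIA samples by title.

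Estimated counts were already whole, so rounding changed nothing. They were tested with the quasi-likelihood test of edgeR 4.0.16 (R 4.3.3), as a two-sided test after TMM scaling, without covariates, over the 13721 genes that reached 0.5 FPKM on average, at a Benjamini-Hochberg adjusted p under 0.05. The analysis plan allowed for counts or FPKM. Members under the filter were taken from the same fit over all 30676 rows. UGT1A1 has no fold, as no library exceeded 12 estimated counts. Each standard error was derived from the F statistic. The members and gene lists were chosen with earlier results of these data known. Named genes are the members, up to 4 genes of highest mean FPKM in each list, and the 3 genes most like the highest member; neighbouring models, other genes and per-library remarks were added after their values were seen. Some genes that the rule names are not reported here. The lists counted 13 beside the members, of which 5 hold cell type markers. The edgeR fit alone was tried on simulated data, and the outcome is not reported here. Shared windows and printed sequences come from GENCODE 29 transcripts and models (GRCh38). Alternatives were DESeq2 1.42.0, limma 3.58.1 on log2 (FPKM + 0.1, 0.5 or 1), other scalings and filters, counts divided by 4, leaving out each library and a replicate block.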

Additional observations from a re-analysis of the deposited data

How the results depend on the processing

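SULT1A1, UGT2B7, SULT1E1, the SULT1A sum and the UGT1A sum kept their direction and stayed short of the threshold under each alternative that gave a value. The UGT1A sum, UGT2B7, SULT1E1 and UGT1A6 have none at a mean FPKM of at least 1. For SULT1E1 the direction was fixed when a library was left out, as its groups do not overlap. Ranges of log2 fold change were 0.05 to 0.14 for SULT1A1, -0.97 to -0.13 for UGT2B7, -1.73 to -0.18 for SULT1E1, 0.06 to 0.13 for the SULT1A sum and 0.12 to 0.52 for the UGT1A sum. SULT1A2 ranged from -0.10 (reversed, without GIA replicate 3) to 0.17 (without GIA replicate 1). UGT1A6 reversed without GIA replicate 1, where the 2 remaining GIA libraries are at 0 and the fitted -6.05 is neither a size nor a bound. It also reversed to -0.23 without DMSO replicate 2 and to -0.88 with the replicate block, with 0 counts in 3 of its 6 libraries. Leaving out 1 library gave mean differences of -5.23 to 2.91 percentage points in the UGT1A7 share and -1.58 to 0.80 in the SULT1A2 share. Over all genes it gave 0 to 2 higher calls (most without GIA replicate 3 or DMSO replicate 3) and 0 to 3 lower calls (most without GIA replicate 3), with 0 among the members and 0 in each list. The replicate block gave 1 higher and 2 lower calls and changed no member's call. Same-numbered libraries share only a number: deviations from the group means correlated at 0.0519, 0.0334 and 0.0966 for numbers 1 to 3. UGT1A1, UGT1A6, UGT2B7 and SULT1E1 rest on at most 46 fragments a group if 1 fragment is worth 4 counts, which limits their precision. UGT1A6 varied more than counting alone would give, and its reads can be shared with other UGT1A genes.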
